A study of Mus musculus with 8 samples.

Results

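The reticulon family was followed across the livers of Jag1 heterozygous and wild-type mice through every array probe that the platform annotation assigns to Rtn1, Rtn2, Rtn3, Rtn4, Rtn4ip1, Rtn4r or Rtn4rl1. Of these 7 genes, 6 had a probe, out of 16593 genes named in the annotation, and the signal of Rtn3 was not analysed here. The 6 genes had 12 probes, which were kept apart, and 7 of the probes, from 4 genes, met the filter on dim signals described below. The genes were chosen on the difference between the genotypes in these same arrays, so their differences are given as a description, with no test of their own.

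Reticulons are membrane proteins of the endoplasmic reticulum that carry a paired hairpin near their C terminus, and with the REEP proteins they bend the membrane into tubules. Rtn4 encodes the Nogo proteins. Nogo-A, the long form, is best known in the brain and spinal cord, where it limits the regrowth of axons through the receptor encoded by Rtn4r, while the shorter Nogo-B is made in many tissues, the vessel wall among them.

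Total RNA was measured from the livers of 4 male mice heterozygous for Jag1K295*/+ (Het) and 4 male wild-type mice (WT). All 8 mice were C3HeB/FeJ and 21 weeks old, each was a separate animal, and each gave 1 array. Jag1 encodes a ligand of Notch receptors, and the series presents the mutant as a model of Alagille syndrome, a disorder with too few bile ducts. The sample titles of the mutants read "hom", whereas their genotype label and the series' design say heterozygous, and heterozygous is used here. The Jag1 probe was not above background on any of the 8 arrays (detection p 0.301 to 0.895), so it gives no check of the genotype labels.

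Each array gave an intensity for 25697 probes and a detection p, the chance of such a signal from the array's background. The mean intensity per array was 422 to 453 in Het and 438 to 488 in WT livers, and the number of arrays limits the precision of every value below. Intensities were corrected for background, quantile normalised and put on a log2 scale. Of all probes, 11412 were tested, those with a detection p under 0.05 on at least 4 of the 8 arrays. Array Het 4 stood apart on the first principal component, at 24.3 against -12.3 to 6.90 for the others.

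The summed linear signals of 7 measured hepatocyte markers overlapped between the genotypes, at 120348 to 125157 in Het and 121282 to 125141 in WT livers. Quantile normalisation gives every array the same set of values, which holds sums of such bright signals close together. The overlap therefore says little about the share of hepatocytes. Probes for 3 of the 10 listed hepatocyte markers, Alb, Tat and Fgb, did not meet the filter, and the Alb probe was above background on 2 of 8 arrays. None of 7 neuron and glia markers (0 of 7) and none of 6 skeletal muscle markers (0 of 6) met it. These are whole-liver samples, in which fewer cells of a type and less RNA per cell cannot be told apart.

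Rtn4 lies on chromosome 11, and RefSeq places 3 transcription starts in its promoter table for the assembly GRCm38.p6, the later ones 876 and 25665 bases downstream of the first. The windows around them, 250 bases before to 50 after each start on the plus strand, are shown because Rtn4 is the member the results turn on and its probes were designed to different transcripts. The first is chr11:29692648-29692947, the second chr11:29693524-29693823 and the third chr11:29718313-29718612. Capitals mark matches, on either strand, to the GC box (GGGCGG) and the CCAAT box (CCAAT).
Rtn4 window 1: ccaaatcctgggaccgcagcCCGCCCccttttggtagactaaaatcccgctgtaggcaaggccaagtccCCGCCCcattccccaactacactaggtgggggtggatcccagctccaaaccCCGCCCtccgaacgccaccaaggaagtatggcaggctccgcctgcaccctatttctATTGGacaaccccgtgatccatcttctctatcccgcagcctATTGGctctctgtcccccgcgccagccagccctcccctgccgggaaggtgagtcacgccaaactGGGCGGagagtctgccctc
Rtn4 window 2: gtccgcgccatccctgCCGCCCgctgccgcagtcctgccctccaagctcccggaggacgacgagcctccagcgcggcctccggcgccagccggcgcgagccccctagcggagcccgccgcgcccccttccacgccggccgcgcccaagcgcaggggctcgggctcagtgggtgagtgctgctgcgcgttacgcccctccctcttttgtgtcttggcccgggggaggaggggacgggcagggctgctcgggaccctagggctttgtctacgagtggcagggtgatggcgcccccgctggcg
Rtn4 window 3: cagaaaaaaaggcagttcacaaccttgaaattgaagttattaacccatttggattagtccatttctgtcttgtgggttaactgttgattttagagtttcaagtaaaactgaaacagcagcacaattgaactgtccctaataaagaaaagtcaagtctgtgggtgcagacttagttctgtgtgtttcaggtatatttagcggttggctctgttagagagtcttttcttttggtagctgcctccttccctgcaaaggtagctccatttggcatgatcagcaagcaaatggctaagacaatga
The first window was 62.3% G and C and held 4 GC boxes, at -230, -181, -130 and 32 from the start, and 2 CCAAT boxes, at -74 and -33. The second was 75.3% G and C and held 1 GC box, and the third was 39.7% G and C and held neither motif. Of all 32851 mouse windows of this length, 35.7% held a GC box and 37.4% a CCAAT box. The core letters TGGGAA bound by RBPJ, the DNA-binding partner of Notch, were in 25.6% of all windows and in 0 of the 10 windows listed for 6 family genes. These genes include Rtn3 and leave out Rtn4rl1, for which no window was listed. The letters TATAAA, present in 13.6% of all windows, were also in 0 of 10. A missing match says only that these letters are not in these windows. GC boxes were in 8 and CCAAT boxes in 3 of the family's 10 windows.

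Rtn4 gave a lower mean signal in Het than in WT livers on the 2 Rtn4 probes above background in both genotypes, and 1 more probe was above background in WT livers alone. The first, ILMN_3140071, designed to NM_194054, gave intensities of 235.1, 248.3, 291.6 and 207.1 in the 4 Het livers, against 307.7, 395.8, 320.4 and 336.0 in the 4 WT livers. Every Het liver lay below every WT liver. On the log2 scale the probe was at 7.19, 7.35, 7.48 and 6.75 in Het and at 7.80, 8.13, 7.57 and 7.73 in WT livers. The means were 7.19 ± 0.32 in Het and 7.81 ± 0.24 in WT livers (SD, n = 4 each). The log2 difference, Het minus WT, was -0.61 with a standard error of 0.16, which places Het signal at 65.3% of the WT signal. Leaving out 1 liver, it ran from -0.71 without Het 3 to -0.47 without Het 4, the array that stood apart. Without background correction the difference was -0.37.

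The other Rtn4 probe designed to NM_194054, ILMN_2699645, gave intensities of 159.3, 161.3, 197.2 and 145.6 in Het livers, against 187.2, 228.7, 203.9 and 194.9 in WT livers. Its log2 signals were 5.95, 6.03, 6.50 and 5.46 in Het and 6.52, 6.87, 6.44 and 6.36 in WT livers. Here the genotypes overlapped, since Het 3 lay above WT 3 and WT 4, while the other 3 Het livers lay below all WT livers. The mean log2 signal was 5.98 ± 0.43 in Het and 6.55 ± 0.23 in WT livers (SD, n = 4 each), a difference of -0.56 with a standard error of 0.20. Leaving out 1 liver, this difference ran from -0.73 without Het 3 to -0.39 without Het 4. Without background correction it was -0.21.

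The third, ILMN_1239786, designed to NM_024226, sat at the edge of detection. It gave 128.7, 124.0, 127.3 and 125.9 in Het livers, where it was above background on 0 of 4 arrays, against 141.9, 148.2, 143.6 and 152.2 in WT livers, where it was above background on 4 of 4. The probe therefore met the filter through the WT arrays alone and had to differ. Its detection p ran from 0.079 to 0.153 in Het and from 0.00627 to 0.0313 in WT livers. Set against the lowest signal above background on each Het array, the WT signal was at least 1.26-fold higher after background correction with an offset of 16. This bound holds for that scale only and was not worked out under other processing. Its measured log2 means were 4.74 ± 0.08 in Het and 5.30 ± 0.16 in WT livers (SD, n = 4 each), and the groups did not overlap. The difference of -0.56 shrank to -0.14 without background correction and to -0.27 with a larger offset.

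The last Rtn4 probe, ILMN_2692728, designed to NM_194051, was not above background on any array. Its detection p was 0.214 to 0.989 and its intensity 107.7 to 129.0 over the 8 arrays, so it gave no comparison. Which Nogo form each probe reads was not settled here, since probe sequences were not used.

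**Figure D1:**
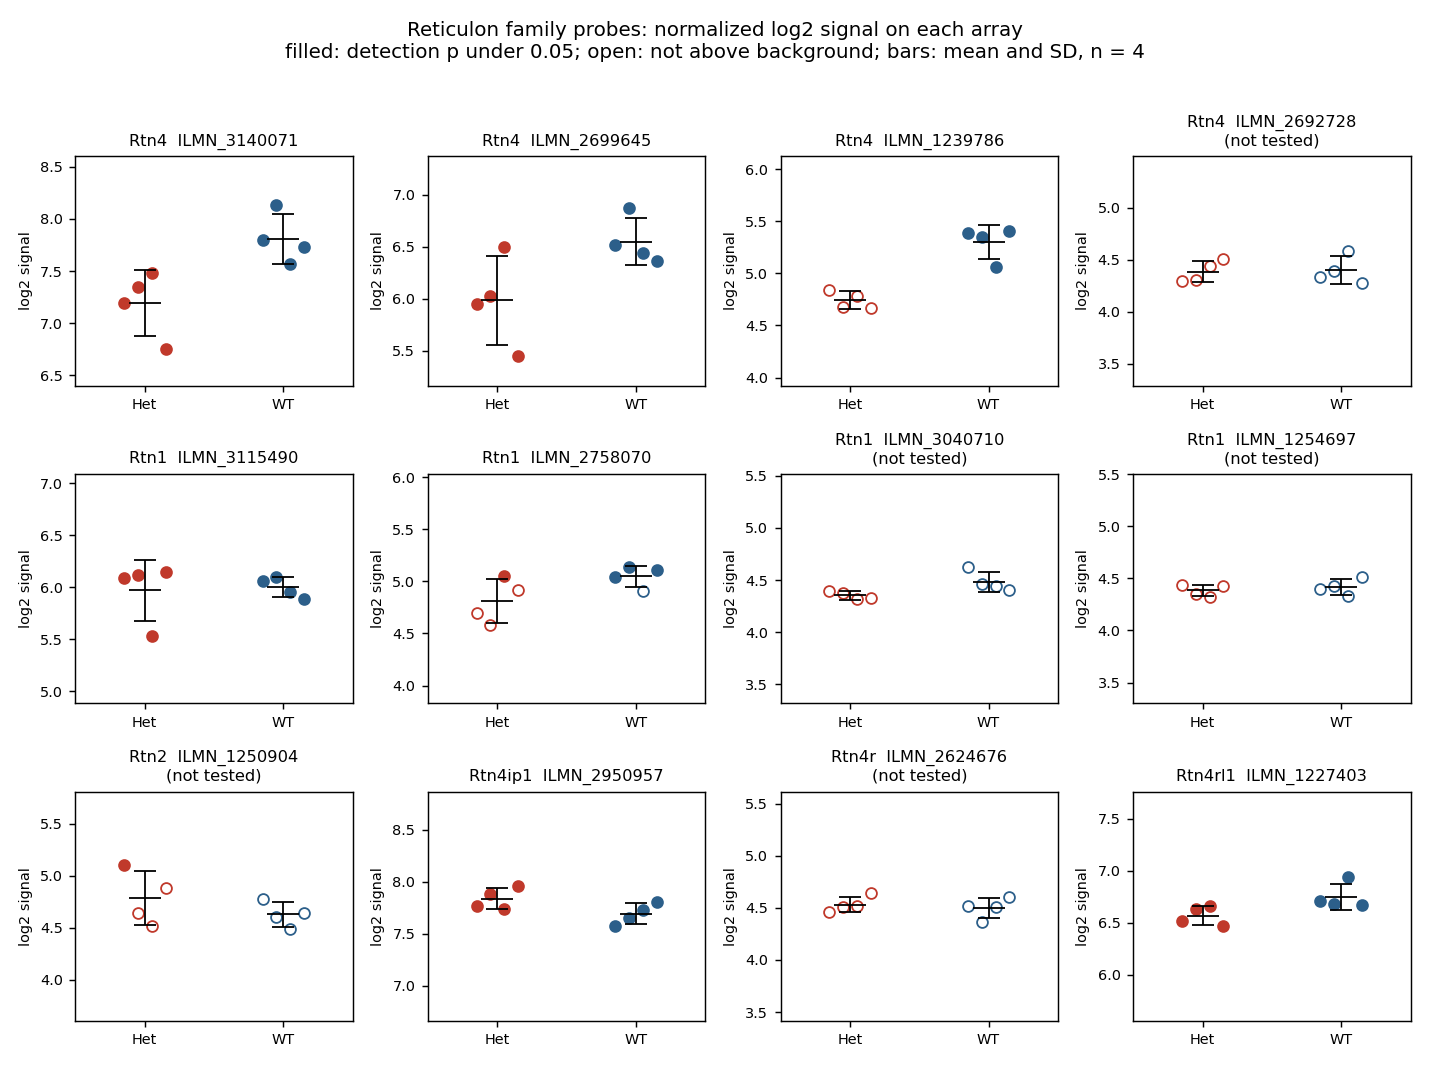
Log2 normalised signal (vertical axis) of all 12 reticulon family probes in each liver, with Het livers left of WT livers. The 5 probes that did not meet the filter are marked as not tested. Filled points had a detection p under 0.05, and open points were not above background. Points are single mice and bars are means with SD. The Rtn4 probe ILMN_3140071 lies at 6.75 to 7.48 in Het and 7.57 to 8.13 in WT livers.

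The 2 probes designed to the same Rtn4 transcript varied together from array to array within genotypes, a measure that the choice of genes did not use. Each mouse gave 1 array, so spread between mice and spread between arrays cannot be told apart here. After each genotype's mean was taken out, ILMN_3140071 and ILMN_2699645 correlated with Pearson's r = 0.93 over the 8 livers (exact permutation p = 0.00694 over all pairings of livers within genotypes, two-sided, adjusted p = 0.0208 over 3 pairs). Spearman's rank coefficient was 0.93 (exact permutation p = 0.00347, adjusted p = 0.0104). Without the 2 livers farthest from the median of ILMN_3140071, Het 4 and WT 2, r was 0.85. With 1 liver left out, r stayed between 0.85 and 0.96, while the adjusted exact permutation p, over fewer pairings, no longer passed 0.05 without any of the 4 Het livers, WT 1 or WT 2, reaching 0.104. Het 4 was the lowest and WT 2 the highest liver on both probes. Probes of other genes followed ILMN_3140071 more closely within genotypes, Acat3 with r = 0.98, so the likeness was not particular to Rtn4.

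The probe ILMN_1239786 did not track the others beyond what the pairings gave. With ILMN_3140071 its r was 0.44 (exact permutation p = 0.236, adjusted p = 0.354) and its Spearman coefficient 0.26 (exact permutation p = 0.587, adjusted p = 0.880). With ILMN_2699645 its r was 0.26 (exact permutation p = 0.462, adjusted p = 0.462) and its Spearman coefficient 0.05 (exact permutation p = 0.929, adjusted p = 0.929). Without the 2 livers farthest out, these r values were 0.38 and 0.11. Its Het signals were not above background on any array.

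**Figure D2:**
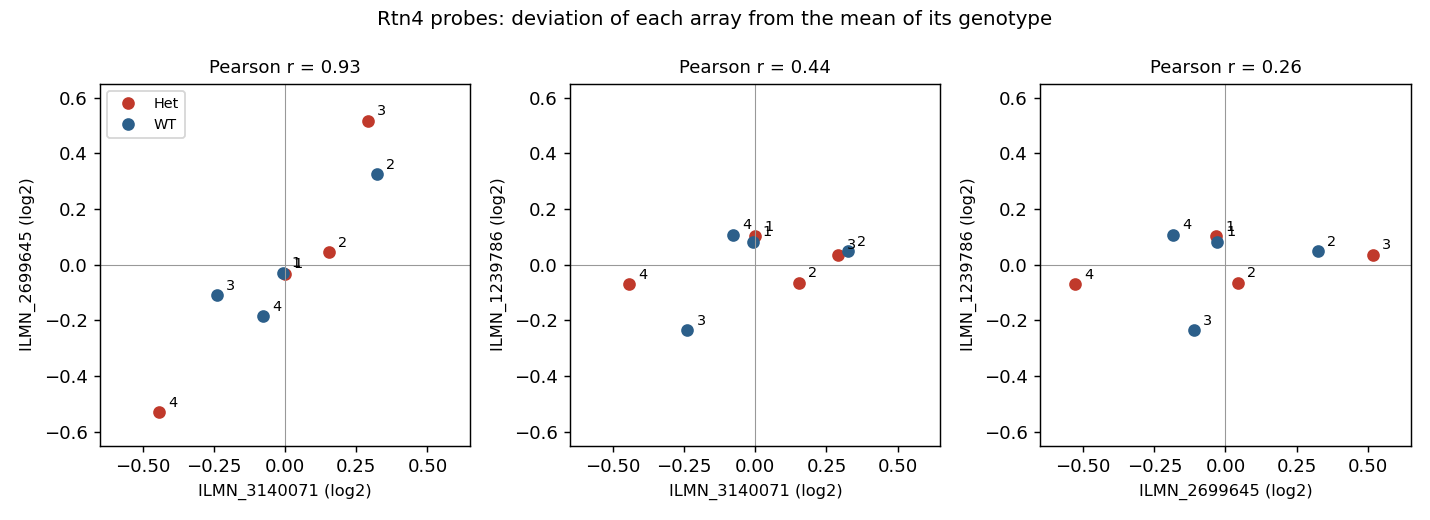
Deviation of each liver from its genotype's mean log2 signal for pairs of Rtn4 probes, with Het and WT livers marked apart. Each point is 1 mouse, and r is 0.93 for the 2 probes designed to NM_194054, 0.44 and 0.26 for the pairs that hold ILMN_1239786.

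Rtn1, a reticulon best known from neurons and neuroendocrine cells, had 4 probes. One of them, ILMN_3115490, designed to NM_001007596, had log2 signals of 6.09, 6.11, 5.53 and 6.15 in Het livers and 6.06, 6.10, 5.96 and 5.89 in WT livers. Het 3 was the lowest liver of the 8, and the groups overlapped. The means were 5.973 ± 0.293 in Het and 6.002 ± 0.097 in WT livers (SD, n = 4 each), and the difference of -0.03 (SE 0.13) turned to 0.12 without Het 3 and to 0.004 without WT 2.

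Another Rtn1 probe, ILMN_2758070, designed to NM_153457, was above background on 1 of 4 Het and 3 of 4 WT arrays. Its log2 signals were 4.70, 4.58, 5.05 and 4.92 in Het and 5.04, 5.14, 4.91 and 5.11 in WT livers, which overlap. The difference was -0.24 with a standard error of 0.11, and -0.06 without background correction. The other Rtn1 probes, ILMN_3040710 and ILMN_1254697, were above background on 0 arrays, with detection p of at least 0.184 and 0.306.

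Rtn2, a reticulon known from skeletal muscle and neurons, had 1 probe, ILMN_1250904. It was above background on 1 array, Het 1, with a detection p of 0.0388, and on no WT array. Of the family probes outside the filter of 4 arrays it was the nearest, with 1 array, while Rtn4 ILMN_1239786 and Rtn1 ILMN_2758070, with 4 arrays each, were just inside it.

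Rtn4rl1 encodes a receptor related to that of Rtn4r and attached to the cell surface. Its probe ILMN_1227403 was above background on all 8 arrays, with log2 signals of 6.52, 6.63, 6.66 and 6.46 in Het livers and 6.71, 6.68, 6.94 and 6.67 in WT livers. The groups did not overlap, but Het 3 lay next to WT 4. The means were 6.57 ± 0.09 in Het and 6.75 ± 0.13 in WT livers (SD, n = 4 each), a difference of -0.18 with a standard error of 0.09. It was -0.12 without WT 3, the highest liver, and -0.08 without background correction.

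Rtn4r, the Nogo receptor itself, was not above background on any array, with a detection p of 0.173 to 0.743 for its probe ILMN_2624676. Its intensities ran from 116.4 to 128.4 over the 8 livers. The neuron and glia markers did not meet the filter either.

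Rtn4ip1 encodes a mitochondrial oxidoreductase, first found as a binding partner of RTN4 and needed for coenzyme Q synthesis. It was the one tested member with a higher mean in Het livers. Its probe ILMN_2950957 had log2 signals of 7.77, 7.88, 7.74 and 7.96 in Het livers and 7.57, 7.66, 7.73 and 7.81 in WT livers, and 2 of 4 Het livers lay above all WT livers. The means were 7.84 ± 0.10 in Het and 7.69 ± 0.10 in WT livers (SD, n = 4 each), and the difference was 0.15 with a standard error of 0.09, or 1.11-fold. Without background correction it was 0.09.

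Across the family, 6 of the 7 tested probes had a lower mean in Het livers, against 48.1% of all tested probes. The 7 probes come from 4 genes, with several from Rtn4 and Rtn1, so they do not count as separate genes. By limma over all 11412 probes, with Benjamini-Hochberg adjustment, 0 of the 7 passed an adjusted p of 0.05, against a background of 0.00876%, which is 1 probe, lower in Het livers. The genotypes did not overlap, with Het lower, for 3 of the 7 probes, against 3.10% of all tested probes. With Het higher this held for 0 of the 7, against 3.15%. Since the genes were chosen on this comparison, these counts describe the choice. Rtn4 ILMN_1239786 is among both the 6 and the 3, and it met the filter through the WT arrays alone. Its place in these counts was therefore fixed by the filter. Rtn1 ILMN_2758070, also among the 6, was above background on 1 Het and 3 WT arrays. Rtn1 ILMN_3115490, among the 6 at -0.03, turned above 0 without Het 3 or without WT 2. At an unadjusted p under 0.05, 1279 of all tested probes differed.

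**Figure D3:**
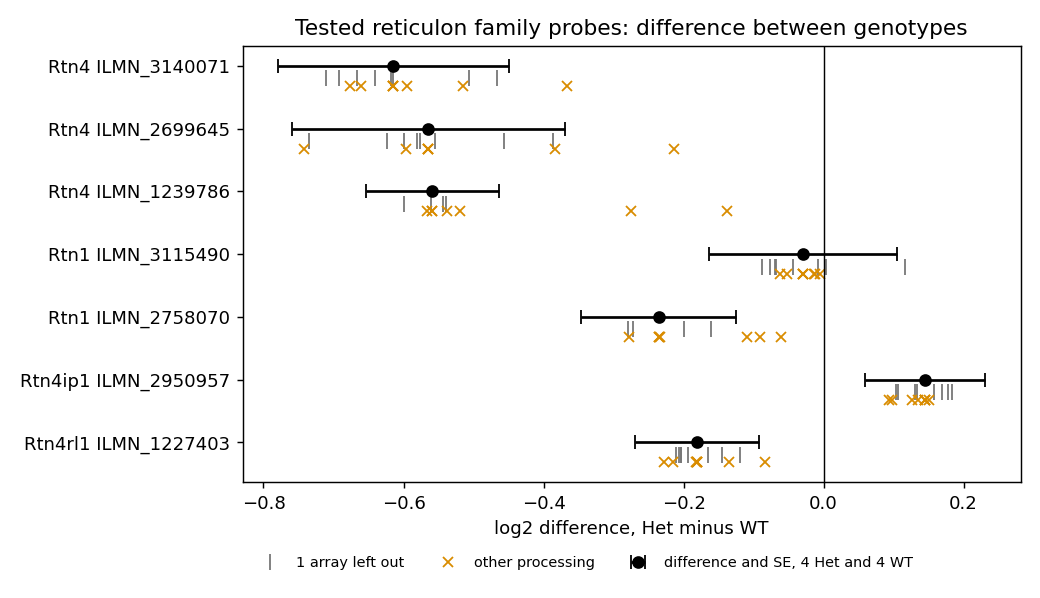
Log2 difference, Het minus WT, of each tested reticulon family probe with its standard error. Ticks mark the difference with 1 array left out, crosses that under other processing, and the vertical line 0. The 3 Rtn4 probes lie at -0.61, -0.56 and -0.56, and the other family probes between -0.24 and 0.15. The direction of ILMN_1239786 was fixed by the filter. The median of all tested probes, not drawn, was 0.006.

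Markers of other liver cells were set beside the Rtn4 values. All 8 markers of endothelial cells, in which Nogo-B is best known, met the filter. Their linear signals summed to 3867 to 4505 in Het and 4008 to 4528 in WT livers. Their median log2 difference was -0.11, with 6 of 8 lower in Het livers. The 5 measured stellate and fibroblast markers, of 8 listed, summed to 1704 to 1931 in Het and 1657 to 2411 in WT livers, with a median of -0.14 and 5 of 5 lower in Het livers. These sums overlapped between genotypes, as did those of 4 macrophage markers, at 410 to 582 in Het and 489 to 632 in WT livers, with a median of -0.18 and 3 of 4 lower.

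Of the 2 bile duct markers measured, only Krt23 differed more than the Rtn4 probes. Of 7 listed, 5 had a probe and 2 were measured, Krt7 and Krt23, while Krt19, Sox9 and Cftr did not meet the filter. Krt7 and Krt23 together summed to 49.4 to 61.0 in Het and 111 to 172 in WT livers, which do not overlap. The median log2 difference of these 2 probes was -0.69, and the gap repeats that of Krt23, since Krt7 hardly differed. The lists were chosen with earlier results of these data known, so this gap is a description only. Krt23, a keratin, was the 1 tested probe past the threshold. It was at 5.63 in Het and 6.99 in WT livers (log2 means, difference -1.36, limma adjusted p = 0.0104), while Krt7 differed by -0.03. Without background correction, without the detection filter or with a replicate block, no probe passed. The part of any of these cell types in the Rtn4 difference was not tested.

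The genes whose log2 signal followed Rtn4 ILMN_3140071, the Rtn4 probe with the highest mean, most closely over the 8 livers, among 10754 named probes tested, were Acat3, Bcap31, Cutal, Aqp8 and Abhd1, with r of 0.99, 0.98, 0.98, 0.96 and 0.96. Acat3 encodes an acetyl-CoA acetyltransferase, Bcap31 a membrane protein of the endoplasmic reticulum and Aqp8 a water channel of hepatocytes. Aqp8 had the widest gap of the 5, with log2 means of 11.24 in Het and 12.01 in WT livers and a difference of -0.77 (SE 0.23). The others differed by -0.26 (SE 0.10) for Acat3, -0.16 for Bcap31, -0.35 for Cutal and -0.25 for Abhd1. These correlations hold both the difference between genotypes and the spread within them, and all points share the same 8 arrays.

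With genotype means taken out, the closest 5 were Acat3, Tcf20, Eif4ebp2, Bcap31 and Abhd17c, with r of 0.98, 0.96, 0.96, 0.96 and 0.95. Acat3 and Bcap31 were in both lists. Acat3 had log2 signals of 9.30, 9.30, 9.41 and 9.03 in Het livers and 9.49, 9.67, 9.43 and 9.50 in WT livers, with the same lowest and highest livers as Rtn4. Abhd17c, from a family of enzymes that remove palmitate from proteins, followed Rtn4 within genotypes with a difference between genotypes of 0.02. The array that stood apart, Het 4, was the lowest in each of these genes.

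**Figure D4:**
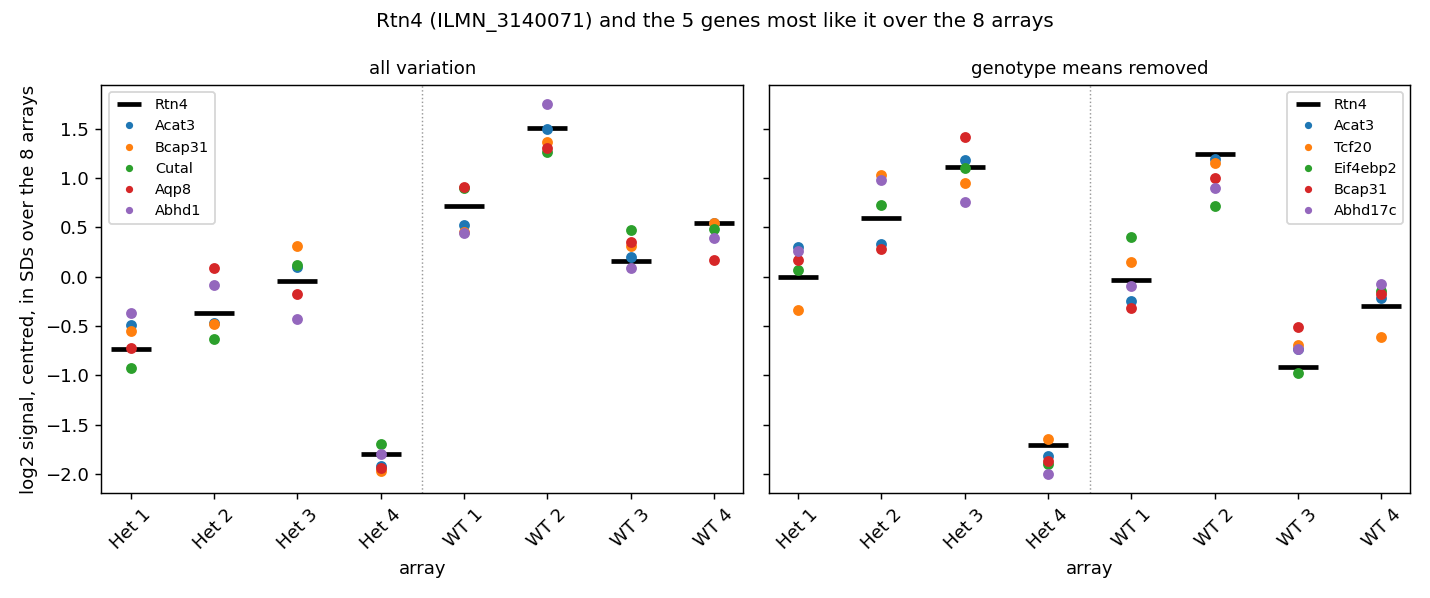
Log2 signal of Rtn4 ILMN_3140071 (black bars) and the 5 genes most like it (points) in each liver, centred and in SDs over the 8 arrays, with genotype means kept (left panel) and removed (right panel). Het 4 is the lowest liver in both panels.

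The pathways around the reticulons were followed through 7 lists of 106 genes, of which 94 had a probe and 71 were tested, 1 probe a gene. By limma, 0 of 71 passed an adjusted p of 0.05 in either direction (background 0.00876%), and 3 had an unadjusted p under 0.05, against 11.2% of all tested probes. The mean was lower in Het livers for 27 and higher for 44, the median log2 difference was 0.02, beside 0.006 for all tested probes, and the range was -0.38 to 0.36. The genotypes did not overlap for 1 of the 71, with Het lower, against 3.10% of all tested probes with Het lower and 3.15% with Het higher.

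Of 18 genes that shape tubules of the endoplasmic reticulum, the process that reticulons share, 13 were tested and 0 passed, with 6 lower, 7 higher and a median of 0.02. The gene without overlap, Rab18, encodes a small GTPase of tubules and lipid droplets. It had log2 signals of 9.65, 9.54, 9.66 and 9.54 in Het and 9.82, 9.85, 9.87 and 9.71 in WT livers. Its difference was -0.22 (SE 0.08, limma adjusted p = 0.369). Tmem33, a membrane protein found to bind reticulons in human cells, differed by -0.23, Tmem170 by 0.21 and Zfyve27, which encodes protrudin, by 0.11.

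Of 12 sheet proteins, which hold the flat, ribosome-bearing membranes, 8 were tested, 0 passed and the median was 0.02. Rpn2 of the oligosaccharyltransferase differed by 0.07 and the ribosome-binding Rrbp1 by 0.05, the translocon subunit Sec61b by -0.16 and the translocon-associated Ssr3 by -0.04. Of 13 genes for turnover of the reticulum by autophagy, 10 were tested, 8 of them higher in Het livers, 0 passed and the median was 0.08. The receptors Retreg2 and Ccpg1 differed by 0.17 and 0.23, Retreg1 by -0.07 and Gabarap, which the receptors bind, by -0.02.

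Of 19 genes on the list that holds the other ligands and co-receptors of Nogo, 10 were tested, 5 lower and 5 higher in Het livers, 0 passed and the median was -0.02. Nus1 encodes the Nogo-B receptor, which is also a subunit of the enzyme that makes dolichol. Its log2 signals were 7.69, 7.59, 7.58 and 7.29 in Het and 7.75, 7.94, 7.75 and 7.65 in WT livers, which overlap. The difference was -0.23 (limma adjusted p = 0.445). Ngfr, a co-receptor of the Nogo receptor in neurons, had log2 signals of 6.80, 6.83, 6.29 and 6.95 in Het and 7.16, 7.32, 6.83 and 7.09 in WT livers. These overlap as well, and the difference was -0.38 (limma adjusted p = 0.404). Tnfrsf19, another co-receptor, differed by 0.23.

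Nogo-B binds serine palmitoyltransferase, the first enzyme of ceramide synthesis, and of 20 genes on this list 12 were tested, 0 passed and the median was 0.05. The ceramide synthase Cers5 differed by 0.24, the desaturase Degs1 by 0.12, the regulator Ormdl3 by -0.16 and the sphingomyelin synthase Sgms1 by -0.08. Reticulons also bind the protease encoded by Bace1, and of 12 genes that process the amyloid precursor, 9 were tested, 0 passed and the median was 0.01. Bace1 differed by 0.19 and the gamma-secretase gene Aph1a by 0.24, App by -0.11 and Psenen by -0.10. Of 13 genes of coenzyme Q synthesis, the process Rtn4ip1 serves, 10 were tested, 0 passed and the median was -0.03. Coq10b differed by 0.36 and Coq4 by 0.13, Coq6 by -0.11 and Coq3 by -0.17.

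**Figure D5:**
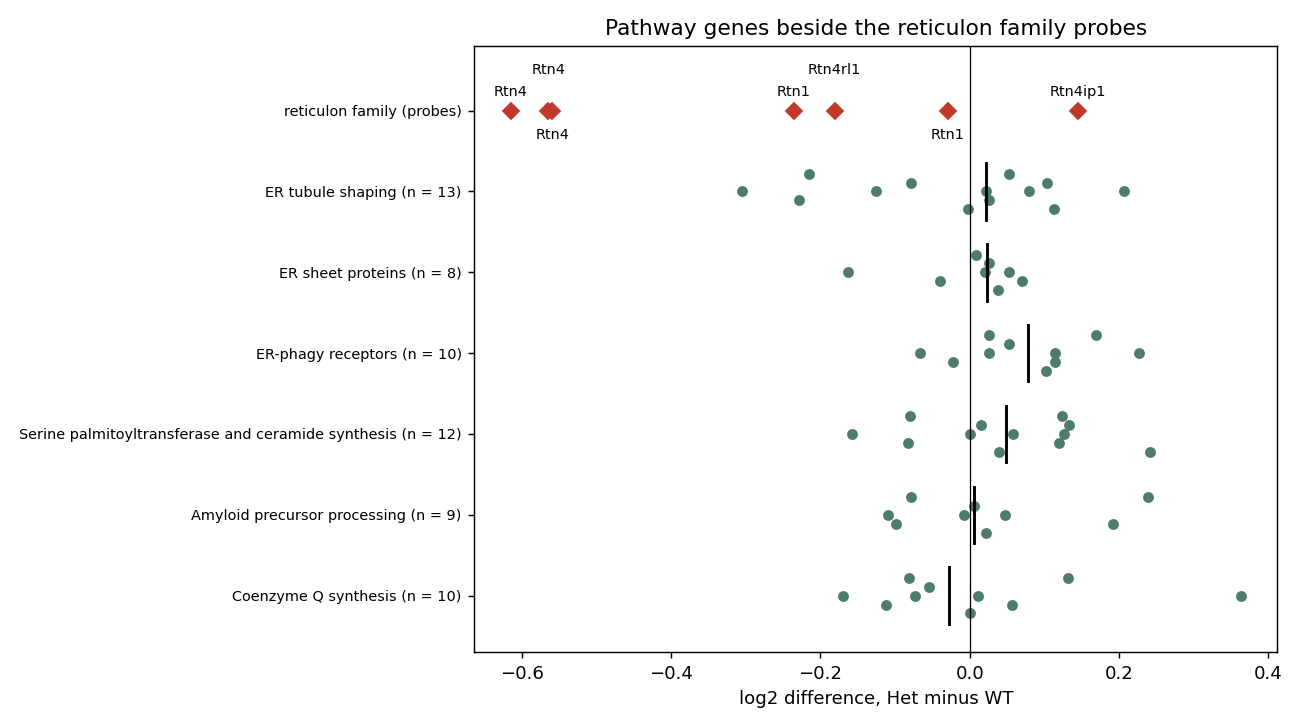
Log2 difference, Het minus WT, of the tested genes of 6 of the lists around the reticulons and of the family's own probes. Each point is 1 gene or family probe, with the family at the top and the lists below it, black lines mark list medians, and these list genes lie between -0.30 and 0.36, against -0.61 for Rtn4 ILMN_3140071.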

How the data were processed

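The authors deposited a table of non-normalised intensity per probe and array, with a detection p-value beside each, exported from GenomeStudio 2011.1 per the submitters' processing notes. A deposited table of processed intensities of the same arrays served as an alternative. RNA was purified with Trizol and a column and labelled as biotinylated cRNA, per the labels' protocols. Probes were named from the platform annotation (23978 named, 1719 not). In R 4.3.3 with limma 3.58.1, intensities were background corrected by normexp (limma nec, offset 16, background estimated through the detection p-values), quantile normalised and put on the log2 scale. Probes with detection p under 0.05 on at least 4 arrays entered 1 linear model with empirical Bayes variance, without covariates, and p-values were adjusted by Benjamini-Hochberg over 11412 probes. The fit was tested on simulated data. The members and lists were chosen with earlier results of these data known. List genes were named by a rule, any past the threshold, otherwise the 2 with the smallest unadjusted p in each direction per list. One gene under this rule is not reported here. The 5 genes most like Rtn4 were those with the highest Pearson r. Same-numbered Het and WT arrays deviated together with r of -0.07, 0.13, 0.10 and 0.08, so numbers were not treated as pairs. Alternatives changed the background correction, offset, normalisation, detection filter and the replicates used, or took the processed table. No chip or batch is named in the sources used here.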

Additional observations from a re-analysis of the deposited data

Results flagged for a closer look

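Among 14 sets of 4 livers of 1 genotype looked at, 2 values lay far from the other 3, where chance gives about 1 in 20 sets. The Rtn1 probe ILMN_3115490 had a log2 signal of 5.534 in Het 3, against 6.092 to 6.149 in the other Het livers, a gap of 0.908 of the whole range. The Rtn4rl1 probe ILMN_1227403 had 6.935 in WT 3, against 6.671 to 6.71 in the other WT livers, a gap of 0.853 of the range.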

How the results depend on the processing

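The ILMN_3140071 and ILMN_2699645 differences stayed below 0 under every alternative in which they were tested, and 0 family probes and 0 list genes passed the threshold under any of 16 alternatives. ILMN_3140071 ran from -0.71 to -0.37 over 16 alternatives (-0.71 to -0.47 leaving out 1 liver), ILMN_2699645 from -0.74 to -0.21 over 15 (-0.73 to -0.39) and ILMN_1239786 from -0.60 to -0.14 over 11 (-0.60 to -0.54). With detection p under 0.01 required on all 8 arrays, ILMN_2699645 and ILMN_1239786 were not tested. The values nearest 0 came without background correction, at -0.37 for ILMN_3140071, -0.21 for ILMN_2699645 and -0.14 for ILMN_1239786, and with an offset of 50 ILMN_1239786 was at -0.27. ILMN_1239786 did not meet the filter once any WT liver was left out. Over all probes, 1 passed as reported, 0 without background correction, 0 without the detection filter, 0 with a replicate block, and 0 to 7 leaving out 1 liver, with 7 without Het 1 and 2 without Het 2. The cause was not tested. The replicate block left the family's count at 0. The likeness of the NM_194054 probes kept r of 0.85 to 0.96 leaving out 1 liver, with adjusted p up to 0.104 over fewer pairings. A chip block was not run, since no chip is named. Rtn4 ILMN_1239786 lies at background in Het livers, which limits its difference to a bound and fixed its direction.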
